A study of Homo sapiens with 79 samples.

Results

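Retinal organoids of day 200 were captured on 2 chips of the Fluidigm C1 system, called chip a and chip b, and all cells of chip a were compared with all cells of chip b. The cells were chosen from the labels alone, as those whose chip column has a title ending in day200a or day200b. This gave 356 cells of chip a and 381 of chip b among the 1976 cells of the series, which also holds 578 cells of day 60 and 661 of day 90. All 24414 gene rows were used, and the row named GFP-Spike was left out. Both chips held cells of the human embryonic stem cell line H9 with a CRX-GFP reporter, a green fluorescent protein placed under the control of the photoreceptor gene CRX, and the cells were not sorted by it. Both groups share the line, the protocol (serum, T3, taurine and retinoic acid in the later medium), the dissociation kit and the day of collection, and the labels name no agent or allele by which they differ. The line is the only one in the series, and the labels do not say whether the 2 chips were loaded from the same organoids.

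On each chip, cells sit in 20 columns, and the cells of a column share a library pool, with 12 to 23 cells in each column of chip a and 15 to 24 in those of chip b. The same 40 row barcodes were found on both chips, and a cell is told by its column and its row. Each chip is 1 capture and its columns are not separate cultures, so no test between the chips was possible and no p-value is given. Levels are counts per 1000000 reads (CPM) summed over all cells of a chip, with an exact Poisson interval of 95% that covers counting error only, because the library carries no molecular identifiers and copies of 1 molecule are counted again. The spread within a chip is shown by the lowest, the median and the highest of its 20 columns. Everything that differs between the captures goes with the chip and cannot be told apart. The totals were 96640680 reads on chip a against 89204989 on chip b, and the columns held 3693079 to 6292174 and 3414268 to 5832138 reads.

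In the retina, rods and cones turn light into a change of membrane current through a cascade of opsin, transducin and phosphodiesterase, and arrestin ends the signal. Müller glia span the tissue, recycle glutamate and retinoids and become reactive after injury, with more intermediate filament and secreted factors. Collagens and other matrix proteins are typical of mesenchymal cells, which retinal organoid cultures can hold beside the neural retina. Photoreceptors and Müller glia are late products of retinal differentiation. Genes and cell types were therefore described by the roles of these groups, with lists of genes for each.

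The labelled tissue was checked against its markers. The 10 genes that the study used to name Müller glia summed to 11942 CPM on chip a against 11646 CPM on chip b, and all 10 passed the filter on low values described below. The 10 genes for cones summed to 4729.7 and 2363 CPM, and the 10 for rods to 1869.8 and 994 CPM. Reads of at least 3 muscle genes were seen in 0 of 356 and 0 of 381 cells, with exact binomial upper limits of 1.03% and 0.964%. Lens and blood could not be checked in this way. Of 16 lens crystallin genes 4 were among the gene rows, and 3 of these had no read on either chip. Of 12 genes of blood, microglia and endothelium 5 were among the rows, and 2 of these had no read. The opsin gene of rods and the alpha transducin gene of cones were not analysed here.

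The cells of the 2 chips differed in how many genes they showed at equal depth. When each cell was thinned to 50000 reads, the median cell showed 1662 genes on chip a against 2772 on chip b, a ratio of 1.67. The column medians spanned 1515.5 to 1900 genes for chip a, with 1650 in the middle, and 2473 to 3324 genes for chip b, with 2755.2 in the middle. All 20 columns of chip b therefore lay above all 20 of chip a. At 25000 reads per cell the medians were 1447.5 and 2474 genes, and at 100000 reads 1936 and 3102 genes. The chips of days 60 and 90 showed 3125.5 and 2886 genes at 50000 reads, so chip a lay apart from the other 3 chips. Chip a also held 22 of the 24 cells called doublets, and mitochondrially encoded genes took a median of 4.14% of a cell's reads on chip a against 5.73% on chip b. The gene rows held no mitochondrially encoded messenger RNA. The 2 mitochondrially encoded ribosomal RNAs took 4.51% and 5.87% of all reads of the chips. With all reads, 217 cells of chip a (61%) and 26 cells of chip b (6.82%) had under 2500 genes.

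This gap in detection was seen across genes and across cell types. Of the 4964 genes that passed the filter, 4859 had reads in a larger share of the cells of chip b than of chip a at 50000 reads. The median gene was seen in 19.8% of cells on chip a against 33.6% on chip b, while its level hardly differed, with a median log2 ratio of chip b over chip a of -0.04. Among genes under 100 CPM the median shares were 15.2% and 26.5%, and among genes of 1000 CPM or more they were 88.5% and 97.1%. In each of the 9 clusters of cells described below, the median cell of chip b showed 1.41 to 1.83 times as many genes. For this reason the chips are compared below by CPM, and a share of cells with reads is read only where its order is the same as that of the CPM. The gap also enters every share that is larger on chip b, so the size of such a difference is not read. For example, 77.2% and 85.6% of cells had reads of at least 3 mature Müller glia genes, while that list summed to 3189 and 2938 CPM. The part of this gap in the other differences between the chips was not tested.

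**Figure D1:**
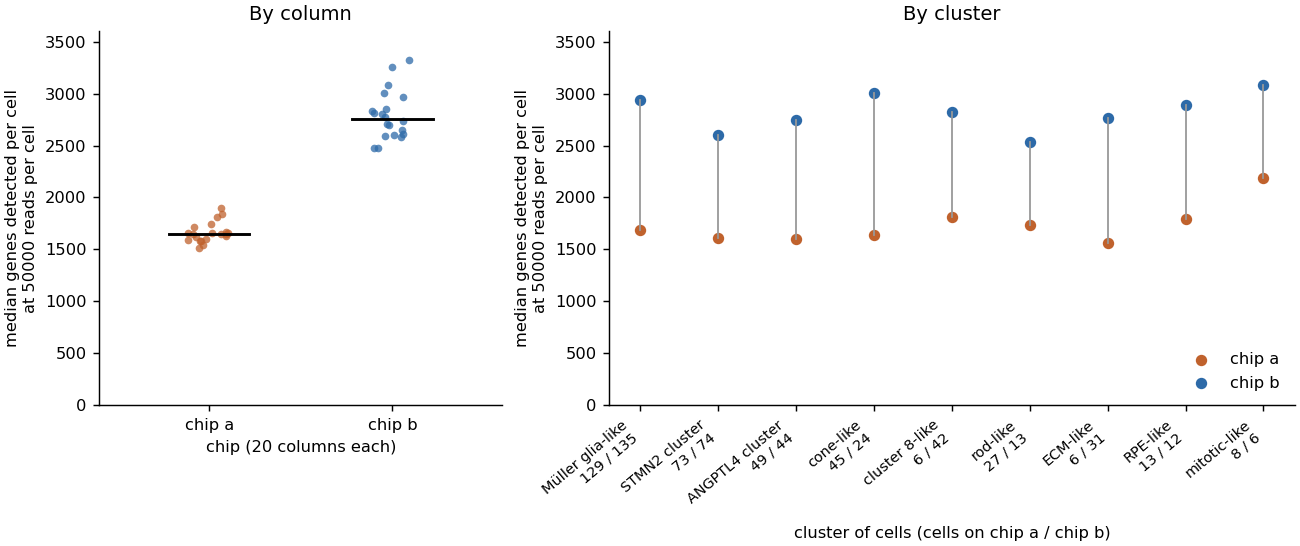
Median number of genes detected per cell at 50000 reads, for each of the 20 columns of a chip (left, bar at the median column) and for each cluster of cells (right, numbers of cells of chip a and chip b under each name). Chip b lies above chip a in every column and in all 9 clusters.

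A gene was kept where 1 of the chips held at least 50 CPM of it and 10% of that chip's cells had its reads, and of the 4964 such genes 107 (2.16%) were at least 2-fold higher on chip a and 133 (2.68%) at least 2-fold higher on chip b, with 5 CPM added to each level. Genes of photoreceptors and the glial gene GPX3 were prominent among the former, and genes of matrix and gliosis among the latter. Of the 107 genes 62 passed the filter through chip a only, and of the 133 genes 98 through chip b only. Such a gene had to be lower on the other chip, so counts and medians over the members of a list that passed describe the list and support nothing by themselves. Sums over all members are given beside them for the lists of photoreceptors, mature Müller glia, matrix, gliosis and ribosomal proteins. Other lists have counts and medians that carry this limit. With the size factors of DESeq2 in place of total reads the split was 151 and 103 genes, since that scaling moved the median log2 ratio of all genes from -0.04 to -0.12. Most of these genes were apart by columns too. The median columns were also at least 2-fold apart for 87 of the 107 and for 126 of the 133 genes. At least 15 of the 20 columns lay above the median column of the other chip for 72 of the 107 and 127 of the 133 genes. Full separation of the columns was rare, with 1 gene (0.0201%) for which all columns of chip a lay above all columns of chip b, RPS24, and 1 gene (0.0201%) in the other direction, AC005912.1.

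**Figure D2:**
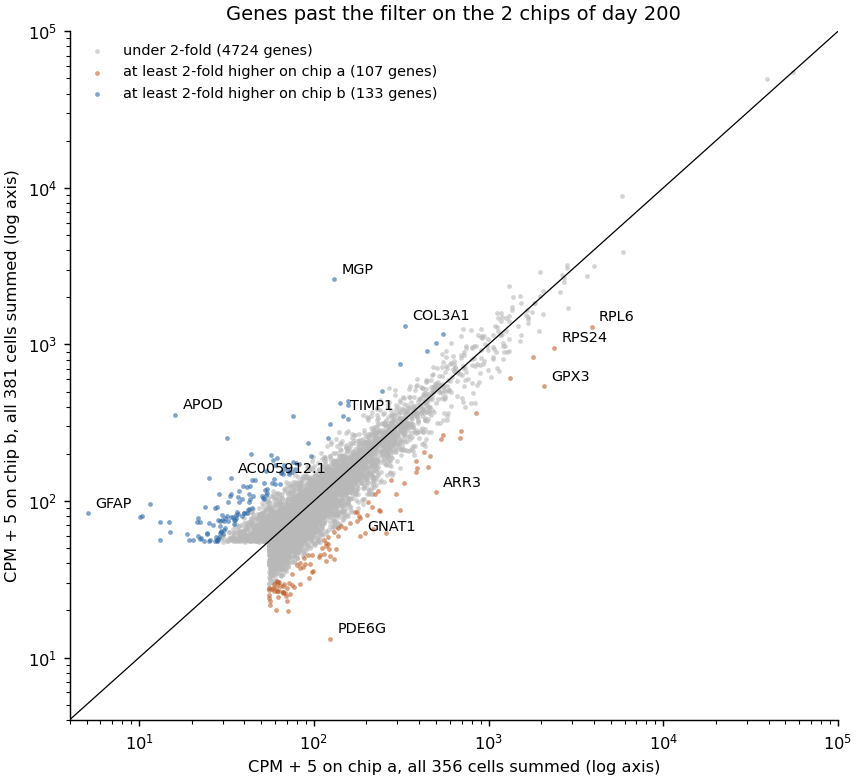
Level of each of the 4964 genes on chip a (horizontal) and chip b (vertical), as CPM over all cells plus 5, on log axes, with the diagonal of equal level. The 107 genes at least 2-fold higher on chip a lie below the diagonal, among them PDE6G, ARR3, GNAT1 and GPX3, and the 133 higher on chip b above it, among them APOD, MGP and COL3A1.

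Genes of cone phototransduction were higher on chip a. Of 14 such genes in the table, 6 passed the filter, and all 6 were at least 2-fold higher on chip a. Their median log2 ratio was -1.40, against -0.04 over all genes. With every cluster of cells given the same weight on both chips, as described below, 1 of these 6 genes was, and their median was -0.72. Their list summed to 2486 CPM on chip a against 873 CPM on chip b, and 14 of the columns of chip a lay above all columns of chip b. ARR3, the cone arrestin, was at 496 CPM (492 to 501) on chip a against 109 CPM (106 to 111) on chip b, a log2 ratio of -2.14. Its columns spanned 0.450 to 1218 CPM (median 434) for chip a and 0 to 592 CPM (median 38.3) for chip b. The columns of ARR3 thus overlapped, and 7 columns of chip a lay above every column of chip b.

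PDE6H, the inhibitory subunit of the cone phosphodiesterase, was at 686 CPM (681 to 691) on chip a against 274 CPM (271 to 278) on chip b, with columns of 15.2 to 1781 CPM (median 716) and of 0 to 760 CPM (median 227). GNB3 and GNGT2, the beta and gamma subunits of cone transducin, were at 677 against 248 CPM and at 214 against 60.9 CPM. KCNV2, a subunit of photoreceptor potassium channels, was at 196 and 76.2 CPM, and SLC24A2, the cone sodium, calcium and potassium exchanger, at 57.5 and 19.2 CPM. These genes all lay higher on chip a, by log2 ratios of -1.73 to -1.31. The other 8 genes of the list were under the filter. Among them PDE6C, the catalytic subunit of the cone phosphodiesterase, was at 8.1 and 10.7 CPM, and no read of the blue opsin gene OPN1SW was found on either chip, which allows up to 0.031 and 0.0336 CPM (3 reads).

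Rod genes were less uniform. The 13 genes in the table summed to 849.6 CPM on chip a against 391 CPM on chip b, and 1 column of chip a lay above all of chip b. Of the 7 that passed the filter, 4 were at least 2-fold higher on chip a against 1 on chip b, with a median log2 ratio of -1.40. Of the 4 genes 2 passed through chip a only, and the 1 gene through chip b only. PDE6G, the inhibitory subunit of the rod phosphodiesterase, was at 119 CPM (117 to 122) on chip a against 8.22 CPM (7.63 to 8.83) on chip b, a log2 ratio of -3.24 and the lowest of all genes. Its columns ran from 0 to 619.8 CPM (median 51.8) and from 0 to 51 CPM (median 0.239), so 10 columns of chip a lay above all of chip b, and the rest fell within its range. GNAT1, the alpha subunit of rod transducin, was at 178 CPM (176 to 181) and 54.4 CPM (52.9 to 56), and its columns spanned 0 to 763 CPM (median 136) and 0 to 206 CPM (median 30.9). NRL, the transcription factor that sets rod fate, was at 232 and 82.5 CPM, and REEP6, a membrane trafficking protein of rods, at 62.9 and 20.7 CPM. GNGT1, the gamma subunit of rod transducin, ran the other way with 25.6 CPM on chip a against 69 CPM on chip b. PDE6B, the catalytic beta subunit, was at 57.4 and 43 CPM, and CNGB1, a subunit of the rod channel, at 84.4 and 54.2 CPM, both within 2-fold.

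The 20 genes shared by rods and cones summed to 3315 CPM on chip a against 1921 CPM on chip b. Of the 11 that passed the filter, 5 were at least 2-fold higher on chip a (2 of them passed through chip a only) against 0 on chip b, with a median log2 ratio of -0.92. They were AIPL1, a chaperone of phosphodiesterase, at 235 and 81.6 CPM, ABCA4, the retinoid transporter of outer segments, at 94.5 and 30.7 CPM, ROM1, a protein of disc rims, at 129 and 44 CPM, CDHR1, a cadherin of outer segments, at 291 and 105 CPM, and UNC119, which carries lipidated transducin, at 841 and 359 CPM. RCVRN, the calcium sensor recoverin and a general mark of photoreceptors, differed little, with 684 CPM (679 to 689.6) on chip a against 641 CPM (636 to 646) on chip b. CRX itself was low, at 5.25 and 5.46 CPM. The columns of RCVRN spanned 76.5 to 1518 CPM (median 660.1) and 4.12 to 1671 CPM (median 663). Of the study's 10 cone markers 7 were at least 2-fold higher on chip a against 0 on chip b, and of its 10 rod markers 5 and 0, but the study chose these markers on samples that include these cells, so their counts are no independent evidence. At 50000 reads, 112 of 356 cells of chip a (31.5%) and 64 of 381 of chip b (16.8%) had reads of at least 3 cone genes, a difference of -14.7 percentage points (Newcombe interval -20.7 to -8.51). Such intervals cover the counting of cells on 2 captures only and are no test of the chips. The columns held shares of 0 to 62.5% (median 33.3%) for chip a and 0 to 40% (median 17.3%) for chip b. For rod genes the shares were 14.3% and 12.3%, a difference of -1.99 points (-6.97 to 2.93), and with all reads they were 29.5% and 18.6%.

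Promoters of the photoreceptor genes are shown because the transcription factor CRX, whose gene carries the reporter, binds DNA with the core letters TAATC. The printed sequences are the 250 bases before the gene's start in RefSeq (GRCh38.p14), 5′ to 3′ on the gene's strand, for the gene of each photoreceptor list that was furthest to the side of chip a among those with a promoter in the table, and capitals mark TAATC or its reverse complement GATTA. ARR3 lies on the plus strand with the printed bases at chrX:70268084-70268333, GNAT1 on the plus strand at chr3:50191360-50191609 and ROM1 on the plus strand at chr11:62613007-62613256.
ARR3: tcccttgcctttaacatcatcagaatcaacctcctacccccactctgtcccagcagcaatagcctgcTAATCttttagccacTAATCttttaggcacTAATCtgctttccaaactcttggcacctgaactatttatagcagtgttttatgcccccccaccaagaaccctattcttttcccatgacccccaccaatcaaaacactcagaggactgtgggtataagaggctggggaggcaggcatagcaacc
GNAT1: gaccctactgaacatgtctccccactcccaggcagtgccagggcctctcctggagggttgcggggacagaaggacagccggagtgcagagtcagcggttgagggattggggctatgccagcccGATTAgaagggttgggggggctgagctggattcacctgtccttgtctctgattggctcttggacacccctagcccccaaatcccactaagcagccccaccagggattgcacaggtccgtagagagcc
ROM1: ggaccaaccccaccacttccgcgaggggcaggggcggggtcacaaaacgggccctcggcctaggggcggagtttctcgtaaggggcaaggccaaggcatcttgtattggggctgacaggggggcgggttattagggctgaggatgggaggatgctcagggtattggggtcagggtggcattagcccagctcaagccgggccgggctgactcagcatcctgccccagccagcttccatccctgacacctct
The letters were found 3 times in the window of ARR3, at positions 68, 83 and 98, 1 time in that of GNAT1 at position 124, and 0 times in that of ROM1. Of 15 photoreceptor genes at least 2-fold higher on chip a, 10 had a promoter in the table, and 5 of these (50%) held the letters on either strand within 250 bases before and 50 after the start. Of the photoreceptor genes that passed the filter without being higher on chip a, 5 of 7 (71.4%) held them, and of all 27305 promoters 20.1%. The letters thus did not set the genes higher on chip a apart from the other photoreceptor genes, and a match of letters is not a binding site.

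Müller glia genes were close on the 2 chips with a few exceptions. The 20 genes of mature Müller glia summed to 3189 CPM on chip a against 2938 CPM on chip b. Of the 13 that passed the filter, 2 were at least 2-fold higher on chip a against 0 on chip b, with a median log2 ratio of -0.02. GLUL, glutamine synthetase, was at 454 CPM (450.1 to 459) on chip a against 487 CPM (483 to 492) on chip b, and CP, the iron oxidase ceruloplasmin, at 366 and 350 CPM. RLBP1, which carries retinoids in glia and pigment epithelium, was at 210 CPM (207 to 213) and 86.0 CPM (84.1 to 88.0), and its columns ran from 44.2 to 531 CPM (median 189) and from 1.02 to 233 CPM (median 68.1). SLC38A3, a glutamine transporter, was at 78.8 and 24.6 CPM. Of the study's 10 Müller glia markers, which were chosen on samples that include these cells, only GPX3 was 2-fold apart.

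GPX3, a secreted glutathione peroxidase, was at 2069 CPM (2059.7 to 2078) on chip a against 534 CPM (529 to 538) on chip b, a log2 ratio of -1.95. Its gene lies at chr5:151020591-151028988 in GRCh38. Its columns spanned 655 to 4031 CPM (median 1851) for chip a and 10.1 to 1155 CPM (median 473) for chip b. All 20 columns of chip a lay above the median column of chip b, and 16 lay above every column of chip b. At days 60 and 90, GPX3 was at 21.3 and 51.2 CPM, under both chips of day 200. Other genes with large ratios on the side of chip a were RRAD, a small GTPase of the Rad family, at 254 and 57.6 CPM, PLEKHB1, a membrane protein of photoreceptors and glia, at 305 and 82.1 CPM, SLC17A7, the vesicular glutamate transporter VGLUT1, at 192 and 57.6 CPM, AANAT, the enzyme before the last step of melatonin synthesis, at 125 and 37.7 CPM, and CPLX4, a complexin of ribbon synapses, at 113 and 36.4 CPM. SH3GL2, an endophilin of synaptic vesicles, was at 89.3 and 27.2 CPM. PRADC1, SLC25A38 and LINC02001 completed the 15 genes furthest to that side, with log2 ratios of -1.86, -1.52 and -1.60.

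**Figure D3:**
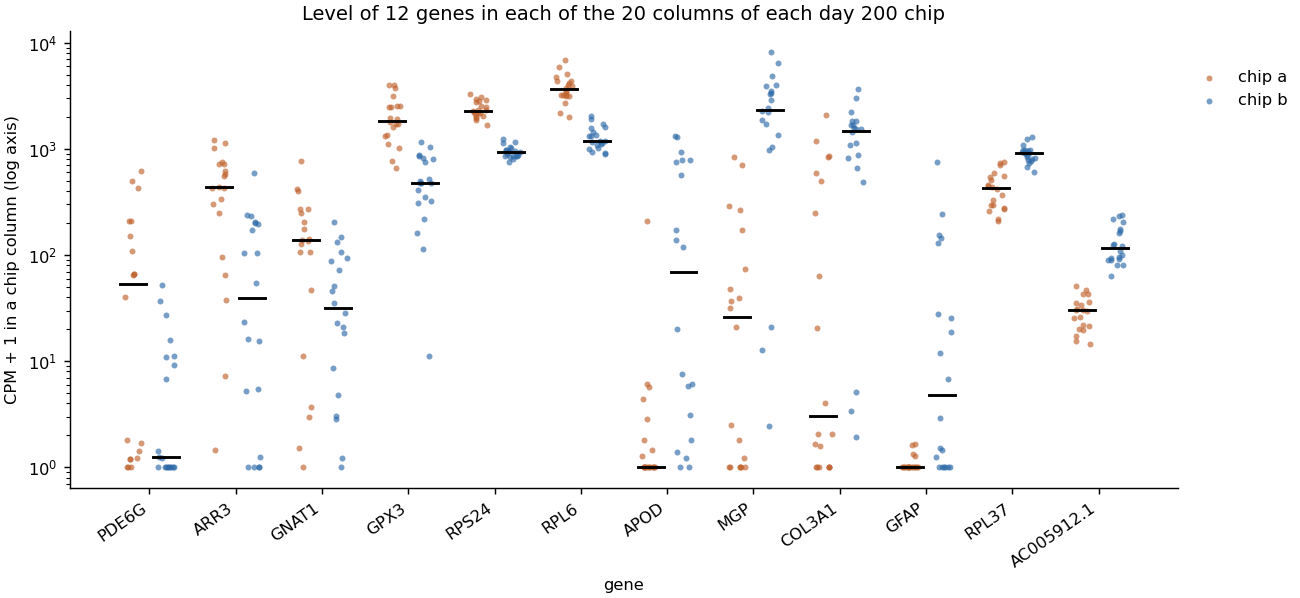
CPM plus 1 of 12 genes in each of the 20 columns of chip a and chip b on a log axis, with a bar at the median column. Columns of RPS24 and AC005912.1 do not overlap between the chips, while those of photoreceptor genes, matrix genes and GFAP do.

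Matrix genes were higher on chip b. The 18 genes of collagen and matrix summed to 2377 CPM on chip a against 7467 CPM on chip b, and 7 columns of chip b lay above all of chip a. Of the 14 that passed the filter, 9 were at least 2-fold higher on chip b and none on chip a, with a median log2 ratio of 1.16, but 5 of the 9 passed through chip b only. Every cluster of cells was also given the same weight on both chips, as described below. The direction then turned for the list's median and, among the 9 genes, for COL1A1, COL1A2, COL3A1 and DCN. MGP, the matrix Gla protein, which restrains calcification, was at 126 CPM (124 to 129) on chip a against 2596 CPM (2585 to 2606) on chip b, a log2 ratio of 4.31. Its columns spanned 0 to 837 CPM (median 25.3) for chip a and 1.44 to 8189 CPM (median 2349) for chip b. Of the columns of chip b, 17 lay above every column of chip a, and the other 3 were within its range. COL3A1, a fibrillar collagen, was at 328 CPM (324 to 332) and 1313 CPM (1306 to 1321), with columns of 0 to 2103 CPM (median 2.07) and of 0.951 to 3705 CPM (median 1488). In 6 columns of chip a COL3A1 had no read, and 19 columns of chip b lay above the median column of chip a, but the ranges overlapped and only 3 columns of chip b lay above every column of chip a.

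COL1A1 and COL1A2, the chains of type I collagen, were at 136 against 419 CPM and at 543 against 1155 CPM, and at 375 against 285 CPM and 1074 against 840.1 CPM with equal weights. TGFBI, an adhesion protein of the matrix, was at 71.1 and 344 CPM, DCN, the proteoglycan decorin, at 59.8 and 147 CPM (169 and 101 CPM with equal weights), LUM, the proteoglycan lumican, at 14.4 and 51.5 CPM, and FN1, fibronectin, at 48.0 and 104 CPM. POSTN, the matrix protein periostin, had no read on chip a, which allows up to 0.031 CPM, and was at 49.2 CPM on chip b, just under the filter. FBN1, fibrillin, and COL6A1 were at 141 against 98.4 CPM and at 247 against 209.7 CPM, within 2-fold. APOD, a lipid carrier of mesenchyme and glia, was at 11.1 CPM (10.5 to 11.8) on chip a against 349.9 CPM (346 to 354) on chip b, and its log2 ratio of 4.46 was the highest of all genes. In 12 columns of chip a and 2 of chip b APOD had no read, and 7 columns of chip b lay above all of chip a.

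The other genes furthest to the side of chip b were CTSC, a lysosomal protease, at 6.59 and 91.0 CPM, PI15, a secreted peptidase inhibitor, at 26.8 and 246 CPM, OLFML3, a secreted olfactomedin, at 5.36 and 74.9 CPM, and S100A10, the partner of annexin A2, at 5.09 and 74.4 CPM. IGFBP4, which binds insulin-like growth factors, was at 20.0 and 135 CPM, and 14 columns of chip b lay above all of chip a. SPARCL1, a secreted matrix protein of glia, was at 38.5 and 194 CPM, FOXC1, a transcription factor of the periocular mesenchyme, at 8.17 and 51.6 CPM, CXCL2, a chemokine, at 8.14 and 68.1 CPM, NMB, the peptide neuromedin B, at 9.91 and 68.6 CPM, and SKAP2, an adaptor protein, at 10.1 and 58.6 CPM. Of the study's 10 markers of its extracellular matrix cluster 9 were at least 2-fold higher on chip b and 0 on chip a, and of the 7 measured well enough of its cluster 8, a group with GPC3 and IGFBP5, 6 and 0. Both lists were chosen on samples that include these cells, and the first shares COL1A1, COL1A2, COL3A1, DCN, MGP and TGFBI with the matrix list. At 50000 reads, 46.1% of the cells of chip a and 81.6% of those of chip b had reads of at least 3 matrix genes, a difference of 35.6 points (28.9 to 41.8). With all reads the shares were 82.6% and 94.0%. The gap in detection enters these shares, so their difference does not measure a difference in level.

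Genes of gliosis and injury also lay higher on chip b. The 21 listed genes in the table summed to 2046 CPM on chip a against 3448 CPM on chip b, and 9 columns of chip b lay above all of chip a. Of 12 that passed the filter, 7 were at least 2-fold higher on chip b and none on chip a, but GFAP, S100A10, CCL2 and ANXA1 passed through chip b only. GFAP, the intermediate filament of reactive glia, which falls outside the rule for named genes and was taken up after its values were seen, was at 0.103 CPM (0.0496 to 0.19) on chip a against 78.3 CPM (76.5 to 80.1) on chip b. Its columns ran from 0 to 0.675 CPM on chip a and from 0 to 749 CPM (median 3.85) on chip b, where 11 columns lay above all of chip a. GFAP on chip b thus rested on part of the columns, and also on part of the cells: without the ECM-like and cluster 8-like cells described below it was at 16.3 CPM on chip b, and in the 42 cluster 8-like cells of chip b at 659 CPM. LGALS3, the lectin galectin 3, was at 151 CPM (148 to 153) and 429 CPM (424 to 433), with columns of 46.2 to 429 CPM (median 133) and of 191 to 756 CPM (median 383), and all 20 columns of chip b lay above the median column of chip a. TIMP1, an inhibitor of metalloproteinases, was at 142 and 346 CPM, IGFBP6 at 53.5 and 178 CPM, CCL2, a chemokine that draws monocytes, at 18.8 and 86.0 CPM, and ANXA1, an annexin that limits inflammation, at 29.7 and 66.4 CPM. S100A10, described above, was the other member at least 2-fold higher on chip b. VIM and NES, intermediate filaments of all Müller glia and progenitors, were within 2-fold at 1131 against 1464 CPM and 148 against 217 CPM. At 50000 reads, 44.1% and 74.3% of the cells had reads of at least 3 genes of this list, shares that the gap in detection also enters.

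**Figure D4:**
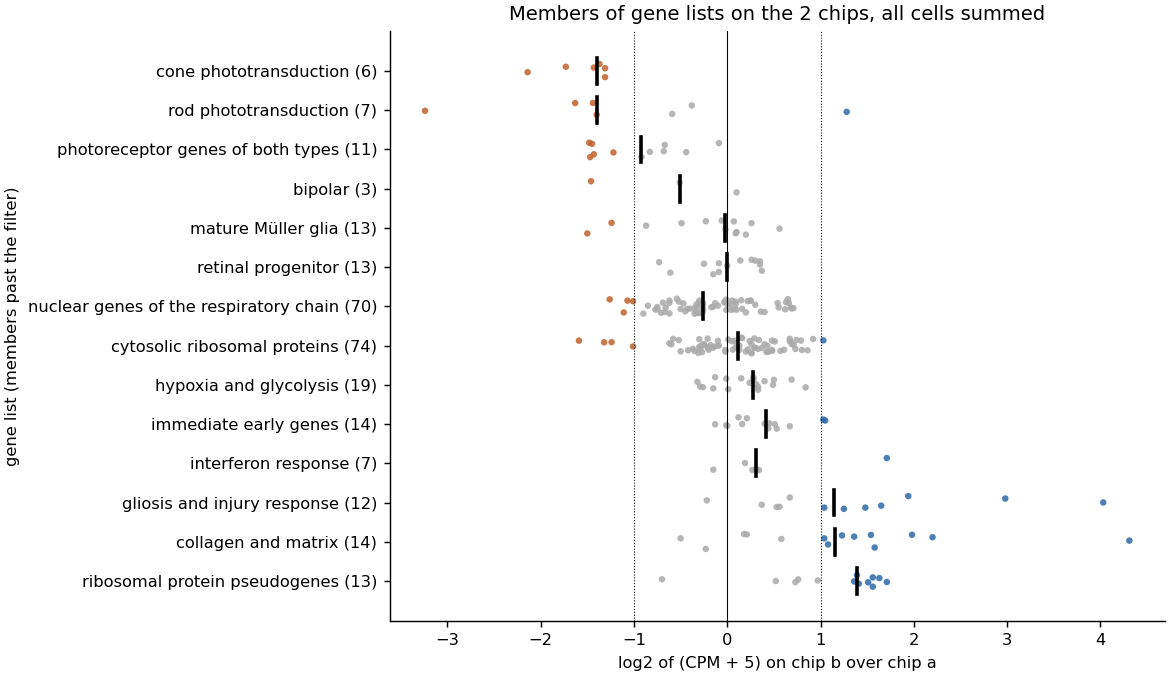
Log2 ratio of chip b over chip a, with 5 CPM added, for each gene past the filter in 14 lists (points) and the median of each list (bars), with dotted lines at 2-fold. Photoreceptor lists lie to the left, on the side of chip a, matrix, gliosis and ribosomal protein pseudogenes to the right, and Müller glia and progenitor lists around 0.

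The columns of some genes of the ribosome overlapped little or not at all between the chips. RPS24, a protein of the small ribosomal subunit, was at 2376 CPM (2366 to 2386) on chip a against 947 CPM (941 to 954) on chip b. Its columns ran from 1683 to 3294 CPM (median 2295) and from 759 to 1237 CPM (median 939), with no overlap. RPL6, a protein of the large subunit, was at 3884 CPM (3872 to 3897) and 1289 CPM (1281 to 1296), with columns of 2013 to 6914 CPM (median 3642) and of 899 to 2037 CPM (median 1198), and 19 columns of chip a lay above every column of chip b. RPS9 and RPL41 were at 178 against 72.5 CPM and 167 against 80.5 CPM, while RPL37 was higher on chip b, with 905 against 441 CPM and 17 columns above every column of chip a. The 85 cytosolic ribosomal protein genes summed to 68406 CPM on chip a against 67107 CPM on chip b. Of the 74 that passed the filter, 4 were at least 2-fold higher on chip a against 1 on chip b, with a median log2 ratio of 0.11, so the list as a whole was close to even.

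Pseudogenes of ribosomal proteins, processed copies scattered over the genome, lay on the side of chip b. This list was drawn up after the data had been examined. Its 655 rows summed to 1198 CPM on chip a against 2487 CPM on chip b, and 17 columns of chip b lay above every column of chip a. Of the 8 that passed the filter and were at least 2-fold higher on chip b, 7 passed through chip b only, so their count says little. RPL13AP5 and RPS3AP47 were at 36.3 against 117 CPM and at 41 against 130.5 CPM. When the pseudogenes of each of 73 parent genes were summed, 55 sums were higher on chip b, 15 by at least 2-fold, and 0 were at least 2-fold higher on chip a. Of the parent genes, 2 were at least 2-fold higher on chip b and 3 on chip a. Reads of these genes and of their near-identical copies cannot be told apart with certainty, so single values are uncertain, and the same holds for MTATP6P1, a nuclear copy of a mitochondrial gene, at 1316 and 607 CPM. AC005912.1, for which the table gives no description and whose 20 columns on chip b all lay higher, was at 28.4 CPM (27.4 to 29.5) on chip a against 135 CPM (133 to 138) on chip b, with columns of 13.6 to 50.1 CPM (median 29.1) and 62.3 to 239 CPM (median 114).

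To see whether the differences were also found between cells of like kind, the cells of both chips were grouped after alignment of the chips, which gave 9 clusters. Clusters were named after the study's lists as Müller glia-like (129 cells of chip a and 135 of chip b), cone-like (45 and 24), rod-like (27 and 13), cluster 8-like (6 and 42), ECM-like, for extracellular matrix (6 and 31), RPE-like, for retinal pigment epithelium (13 and 12), and mitotic-like (8 and 6). A cluster led by STMN2, a gene of young neurons (73 and 74 cells), and one led by ANGPTL4, a secreted factor of lipid metabolism (49 and 44), were left unnamed. The names were rebuilt here from the same genes, and numbers of cells per cluster are given as n and not as results. The 4 clusters with at least 20 cells on each chip were compared.

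In Müller glia-like cells 281 of 4895 genes (5.74%) were at least 2-fold higher on chip a against 258 (5.27%) on chip b. In the STMN2 cluster the counts were 613 (11.6%) and 496 (9.42%) of 5266 genes, in the ANGPTL4 cluster 761 (14.5%) and 837 (15.9%) of 5254, and in cone-like cells 768 (15.1%) and 1029 (20.2%) of 5082. The shares were larger where fewer cells were summed. Few genes were apart in the same direction in all 4 clusters, 7 on the side of chip a and 10 on that of chip b. The 7 were RPS24, RPL6, RPS9, MRPL41 of the mitochondrial ribosome, MTATP6P1, PRCC and PLEKHB1. The 10 were FRMD4B, PRRG3, SP100, AL122020.1, AC005912.1 and the pseudogenes RPS19P3, RPS13P2, RPL10AP6, RPL21P16 and RPS3AP47. PLEKHB1 was at 137 and 30.2 CPM in Müller glia-like cells and at 1283 and 625 CPM in cone-like cells. SP100, a protein of nuclear bodies, was at 48.9 and 118 CPM and at 36.5 and 93.8 CPM in the same clusters. No member of the photoreceptor or matrix lists was among these genes. RPS24 and RPL6 were lower and AC005912.1 higher on chip b in each of the 9 clusters. The log2 ratio of RPS24 lay between -1.82 (cone-like) and -1.19 (Müller glia-like) in the 4 clusters, and that of RPL6 between -1.96 and -1.48. Pseudogenes of ribosomal proteins summed to 1282 and 3055 CPM in Müller glia-like cells, 919 and 2007 CPM in the STMN2 cluster, 1583 and 2615 CPM in the ANGPTL4 cluster and 1043 and 1750.1 CPM in cone-like cells.

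Within Müller glia-like cells, GPX3 was at 5054 CPM (5031 to 5078) on chip a against 706 CPM (697 to 715) on chip b and had the lowest log2 ratio, -2.83, among genes with reads in at least 30% of these cells. GPX3 and the photoreceptor and matrix genes given by cluster here were also among the genes from which the clusters were built, so these values are a description. RLBP1 was at 429 and 152 CPM there, and GLUL at 457 and 444 CPM. TSPAN4, a tetraspanin, was at 195 and 60.0 CPM, IFITM1, an interferon-induced membrane protein, at 71.1 and 20.9 CPM, and MORC4 at 142 and 46.1 CPM. GPX3 differed by less in the ANGPTL4 cluster, with 669.8 and 628 CPM, and was at 148 and 21.1 CPM in the STMN2 cluster. On the side of chip b, MGP in Müller glia-like cells was at 9.43 CPM (8.44 to 10.5) and 494 CPM (487 to 502), MYLK, a kinase of myosin, at 6.59 and 113 CPM, IGFBP6 at 65.4 and 347 CPM, BST2, an antiviral protein of the interferon response, at 13.5 and 80.9 CPM, CCL2 at 22.5 and 178 CPM, and LGALS3 at 214 and 562 CPM. Of 11 gliosis genes measured well enough in these cells, 5 were at least 2-fold higher on chip b and 0 on chip a, and the list summed to 3149 and 4706 CPM. Elsewhere the list differed by cluster. Of 3 genes in the STMN2 cluster 2 were higher on chip b and 0 on chip a. In the ANGPTL4 cluster 2 of 8 were higher on each chip, and in cone-like cells 1 of 2 on chip a and 0 on chip b. MGP was therefore higher on chip b also in cells outside the ECM-like cluster, whose cells held 6617 and 30988 CPM of it. The level of MGP outside that cluster moved with its level inside it, and the part of free RNA in this was not tested. COL3A1 was nearly even in the ECM-like cells, at 17750.3 CPM on chip a against 16590.2 CPM on chip b, with 6 cells behind the value of chip a.

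Within cone-like cells the genes of phototransduction were mostly within 2-fold. PDE6H was at 4172 and 3272 CPM, GNB3 at 2823 and 1950.5 CPM, and KCNV2 at 694 and 794 CPM. ARR3 was at 3262 CPM on chip a against 1429 CPM on chip b, still 2-fold apart, while RCVRN ran the other way with 1538 and 4131 CPM. Of 11 cone genes measured well enough in these cells, 2 were at least 2-fold higher on chip a and 2 on chip b, and their list summed to 13039 and 8775 CPM. Of 17 genes shared by rods and cones, 1 was at least 2-fold higher on chip a and 4 on chip b. Of all genes in these cells 15.1% and 20.2% were, so the 4 genes are near that share. The shared list summed to 8783 and 11226 CPM, the reverse of all cells together, but this order rested on RCVRN alone. In rod-like cells GNAT1 was at 2023 and 1277 CPM, NRL at 1922 and 1621 CPM, and PDE6G at 1299 and 180.1 CPM. These values rest on 27 and 13 cells, fewer than the minimum of 20 on chip b, and are given as values only. Of 72 nuclear genes of the respiratory chain in cone-like cells 16 were at least 2-fold higher on chip a and none on chip b, beside 15.1% of all genes there, and the list summed to 47306 and 32020.2 CPM. In the other 3 clusters 1 of 70, 4 of 71 and 5 of 70 were higher on chip a (Müller glia-like, STMN2, ANGPTL4) and 3, 1 and 7 on chip b. Over all cells 4 of 70 were higher on chip a against 0 on chip b, among them UQCR10, a subunit of complex III, at 1802 and 831 CPM. The largest ratios in cone-like cells were those of MRPL24, a mitochondrial ribosomal protein, at 196 and 2.46 CPM, and PCP4, a calmodulin regulator, at 10.4 and 638 CPM, which rest on 45 and 24 cells. NECAB3, SFRP2, a secreted inhibitor of Wnt, HINT2 and CACNA2D4, a calcium channel subunit of photoreceptor synapses, were at 109.9, 79, 344 and 167 CPM in cone-like cells of chip a and at 0.329, 1.64, 25.0 and 10.2 CPM in those of chip b. ZFYVE9, CWC22, CREBBP and KRCC1 were at 0.450, 0.525, 1.5 and 2.17 CPM and at 179, 133, 132 and 136 CPM.

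In the STMN2 cluster, GAP43, a protein of growing axons, was at 23.7 and 318 CPM, and KCNV2 at 238 and 35.5 CPM. C2orf71, a gene of photoreceptor outer segments, was at 64 and 3.24 CPM, PAPPA2, a protease of growth factor binding proteins, at 56.5 and 6.91 CPM, and IFITM3 at 276 and 53.1 CPM. On the side of chip b in that cluster were also EBAG9 at 4.63 and 87.7 CPM, WBP1L at 3.6 and 66.4 CPM, MGP at 4.46 and 72.4 CPM and TLN1, which links integrins to actin, at 3.55 and 61.4 CPM. The cone list in that cluster summed to 1305 and 570.2 CPM, with 4 of 5 genes at least 2-fold higher on chip a against 0 on chip b. Of all genes there 11.6% and 9.42% were. How many of the 5 passed the filter through chip a only is not given, so this count carries the limit stated above. In the ANGPTL4 cluster NEUROD1, a factor of neurogenesis and photoreceptor survival, was at 114 and 4.76 CPM, KLC1, a light chain of kinesin, at 306 and 31.5 CPM, and RRAD at 180.2 and 21.1 CPM. HSDL1 and PLXDC1 were at 103 against 12.4 CPM and 65.8 against 7.5 CPM. Higher on chip b in that cluster were GLIPR2 at 1.34 and 132 CPM, SLCO5A1, an organic anion transporter, at 1.17 and 123 CPM, ABI1, a regulator of actin, at 0.586 and 107 CPM, COL9A1, a collagen, at 0.0837 and 94.8 CPM, and GNL3, a nucleolar protein, at 1.67 and 91.1 CPM. Of 8 matrix genes measured well enough there, 4 were at least 2-fold higher on chip a and 0 the other way, which is the reverse of all cells together. Reads of at least 3 matrix genes were found in 6 of 45 cone-like cells of chip a (13.3%) and 16 of 24 of chip b (66.7%), and in all 6 and all 31 ECM-like cells. The gap in detection enters the shares of cone-like cells too.

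How far the overall differences went with the numbers of cells in each cluster was described by giving every cluster the same weight on both chips. Of the 107 genes higher on chip a 50 were then still at least 2-fold higher, and of the 133 higher on chip b 81. GPX3 (log2 ratio -2.08), RPL6 (-1.56), RPS24 (-1.30) and PDE6G (-2.38) remained apart, and so did APOD (2.71), MGP (2.36) and AC005912.1 (1.98). ARR3 moved from -2.14 to -1.23 and GNAT1 from -1.63 to -0.56. With these weights 1 of 6 cone genes, 1 of 7 rod genes and 0 of 11 shared photoreceptor genes were at least 2-fold higher on chip a. With cells as captured, 6, 4 and 5 were. The medians of these lists moved from -1.40, -1.40 and -0.92 to -0.72, -0.53 and -0.56. COL3A1 moved from 1.98 to -0.05, COL1A1 from 1.58 to -0.39, COL1A2 from 1.08 to -0.35, DCN from 1.23 to -0.72 and GPC3, a glypican, from 1.32 to -0.23, and the median of the matrix list turned from 1.16 to -0.27. These weights rest on 6 cells of chip a in each of the ECM-like and cluster 8-like groups. With both of these groups left out, an alternative chosen after the data had been examined, 85 of the 107 and 84 of the 133 genes were still 2-fold apart, with MGP at 4.05, APOD at 1.6 and COL3A1 at 0.97. With the cone-like and rod-like cells left out, 69 and 106 were, with ARR3 at -1.40 and GNAT1 at 0.01. In bulk sums, fewer cells of a type and less RNA per cell cannot be told apart.

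**Figure D5:**
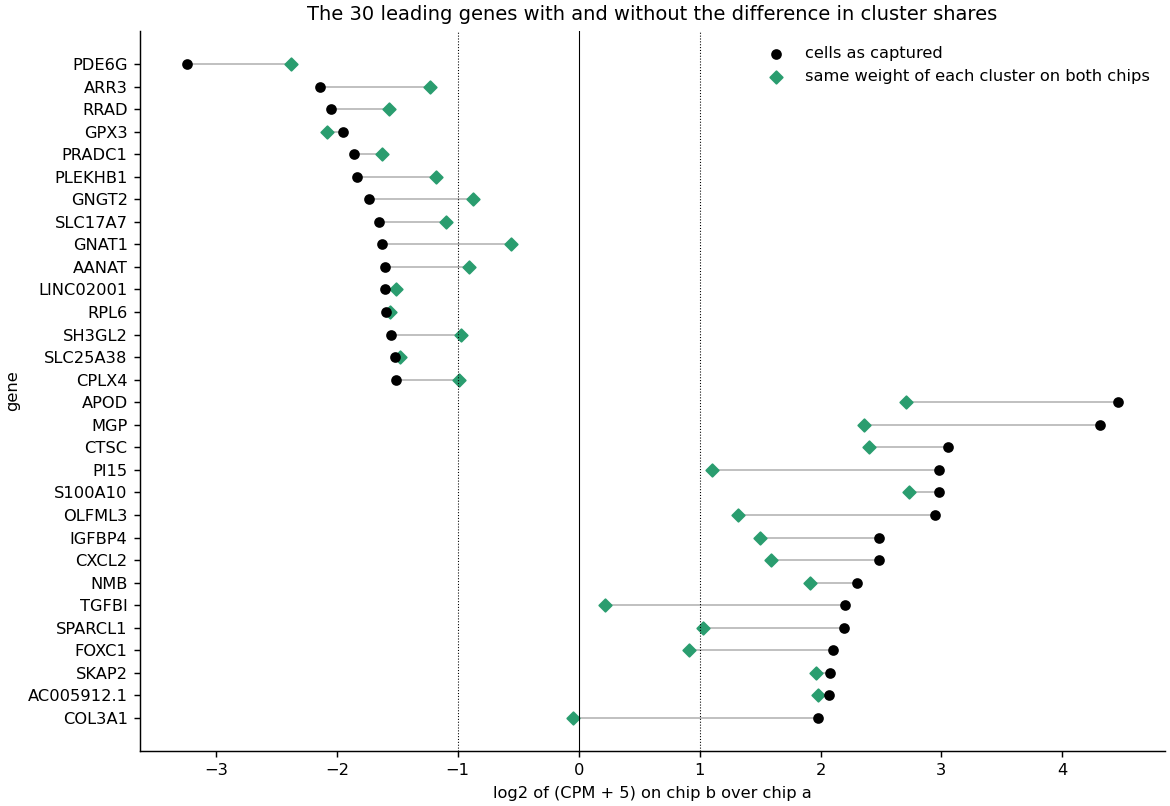
Log2 ratio of chip b over chip a for the 30 leading genes, with cells as captured (circles) and with the same weight of each cluster on both chips (diamonds), with dotted lines at 2-fold. GPX3, RPL6, LINC02001, SLC25A38, SKAP2 and AC005912.1 hardly move, while COL3A1 and TGFBI move to about 0.

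The chips of the other days give a scale for these counts. By the same rule, 560 of 4801 genes (11.7%) were at least 2-fold apart between the chips of days 60 and 90, 382 of 4931 (7.75%) between day 90 and chip a, and 293 of 4820 (6.08%) between day 90 and chip b. Between day 60 and chip a 789 of 5017 (15.7%) were, and between day 60 and chip b 519 of 4843 (10.7%), so these counts also moved with the chip of day 200. Between chips a and b, of the same day, 240 of 4964 (4.83%) were. For 80 of the 107 genes higher on chip a and 96 of the 133 higher on chip b, the level at day 90 lay between the 2 chips. These genes were picked for their gap between the 2 chips, which makes a level between them more likely. The same counts over all genes are not given, so the counts by day are a description and support nothing by themselves. At day 60, 69 of the 107 genes lay below both chips, as ARR3 did with 6.05 CPM and GNAT1 with no read. Of the 133 genes, 43 lay below both chips at day 60, 52 between them and 38 above both, among the latter AC005912.1 with 301 CPM. These comparisons share chips, so they are given side by side and were not combined.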

How the data were processed

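Single cells of day 200 organoids were measured with SMART-Seq v4 libraries in 40 chip columns. The authors trimmed reads (Trimmomatic 0.33), aligned them (STAR 2.4.0, GRCh38.p7, GENCODE 25), counted them per gene (HTSeq 0.6, no strand setting named) and used Scater to filter both cells and genes. Values were deposited as raw counts of reads per gene and cell, with neither normalization nor molecular identifiers. The stated filters were 150000 reads, 2000 genes and 15% mitochondrial reads. Some deposited cells of both chips lie outside the first and the last, and 25 cells of chip a (none of chip b) under the second. The mitochondrial share was computed here on rows without mitochondrially encoded messenger RNAs, so it may not be the measure that the authors filtered on. No column of another series was found.

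From the counts, reads were summed per chip, column and cluster and scaled to CPM with Python 3.11.15, pandas 2.3.3, numpy 2.4.6 and scipy 1.17.1. A gene entered with at least 50 CPM on 1 chip and reads in 10% of its cells, and was called at a log2 ratio of at least 1 after adding 5 CPM. Clusters were made in Seurat 5.3.0 (R 4.3.3; LogNormalize, CCA alignment of the 2 chips, 1000 variable genes per chip, 20 dimensions, resolution 0.6) and named from at least 3 of 10 marker genes of the study, each 2-fold higher and in 20% of cells; after the data were examined, a cluster was left unnamed where its 10 leading genes held nearly as many markers of another list, as in the STMN2 cluster (3 of retinal ganglion cells, 2 of rods). Doublets were called by scrublet (scanpy 1.11.5) and kept. Intervals are exact Poisson, exact binomial or Newcombe, at 95%, and cover counting error only. The calling script was tested on simulated data. Gene positions are from GENCODE 44, which matched 18437 of 24414 rows, and promoters from RefSeq; the letters TAATC were taken after the longer TAATCC had been searched.

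Genes were named from the 15 furthest apart in each direction whose column medians were also 2-fold apart, the 5 per direction in each of the 4 clusters, and the 3 highest members of each list; further members are given to describe a list. Alternatives were other scaling (edgeR 4.0.16, DESeq2 1.42.0), offsets, filters, depth, doublets, cluster settings, equal cluster weights and each column left out. The members and lists were chosen with earlier results of these data known.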

Additional observations from a re-analysis of the deposited data

How the results depend on the processing

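No paired analysis was possible because the results come from no test and column numbers do not pair the chips. Without the filter on low values, 488 genes were at least 2-fold higher on chip a against 853 on chip b, and the genes with separated columns numbered 3 on the side of chip b (AC005912.1, RPS19P7 and RPL10P6). With the mean over cells in place of summed reads, 2 genes (RPS24 and RPL6) were separated on the side of chip a. With each column left out in turn, 102 to 121 genes were higher for chip a, 125 to 139 for chip b, and 1 to 2 genes were separated in each direction; RPL6 was added without column 3 of chip a or column 1 of chip b, UQCR10 without column 3 and H3F3B without column 5 of chip b, and AC116533.1, RPL13AP5 and RPS27AP16 without columns 2, 4 and 17 of chip a. Without alignment of the chips, 1444 genes in place of 539 were 2-fold apart in Müller glia-like cells. With equal cluster weights the direction turned for COL3A1 (-0.05), COL1A1 (-0.39), COL1A2 (-0.35), DCN (-0.72), GPC3 (-0.23) and the matrix list (-0.27). It also turned for the lists of all collagens (0.36 to -0.28), immediate early genes (0.42 to -0.02) and interferon genes (0.31 to -0.06). Genes within 2-fold over all cells turned too, among them RCVRN (-0.09 to 0.71), CNGB1 (-0.59 to 0.08), PDE6B (-0.38 to 0.28) and EGR1 (0.21 to -0.09). Without cone-like and rod-like cells the direction turned for genes such as GNAT1 (0.01) and PDE6B (0.10). The cause was not tested. With equal cluster weights 72 genes were higher for chip a and 90 for chip b. Under the other alternatives, 84 to 151 genes were higher for chip a, 96 to 150 for chip b. Shares of cells moved with depth: without thinning, the difference in cone gene shares was -30.8 points in place of -14.7, in rod gene shares -10.9 in place of -1.99, in matrix gene shares 11.4 in place of 35.6.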

Other observations

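Other groups of genes differed little between the chips of day 200 when all cells were summed. Of 13 retinal progenitor genes that passed the filter, 0 were 2-fold apart, with a median log2 ratio of -0.00, and of 19 genes of hypoxia and glycolysis 0 were, with a median of 0.28. Of 12 heat shock genes, 8 of cholesterol synthesis and 7 of iron handling 0 were 2-fold apart, and of 14 genes of amino acid and endoplasmic reticulum stress ATF3, a stress-induced factor, was, at 61.6 and 143 CPM. Of 14 immediate early genes, which answer stimuli within minutes, 2 were at least 2-fold higher on chip b and 0 on chip a, ZFP36, which destabilizes messenger RNA, at 77.4 and 166 CPM and BTG2, which restrains division, at 241 and 496 CPM. FOS was at 863 and 1139 CPM and EGR1 at 1309 and 1519 CPM. Of 7 interferon genes, BST2 alone was higher on chip b, at 17.4 and 68.3 CPM, while IFITM3 was at 1462 and 1315 CPM.

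Genes of regions behind the retina were low but uneven. HOX genes, which pattern hindbrain and spinal cord, summed to 128 CPM on chip a against 380.1 CPM on chip b, and 10 columns of chip b lay above all of chip a. HOXB3 was at 22.8 CPM (21.8 to 23.7) and 86.8 CPM (84.9 to 88.8), and 299.7 and 535 CPM of it were found in cluster 8-like cells. At day 60 the HOX genes summed to 975 CPM and at day 90 to 139.7 CPM. GAP43 was at 28.5 and 106 CPM, and VSX1, a factor of bipolar cells, at 92.4 and 30.4 CPM. ONECUT2, a factor of horizontal and ganglion cells, was at 63.8 and 19.8 CPM. Pigment epithelium genes summed to 799 CPM on chip a against 556 CPM on chip b, although reads of at least 3 of them were seen in 11.0% and 20.7% of cells at 50000 reads, so the share went against the level. Genes of S phase and mitosis summed to 694 and 303 CPM, but their median columns were at 237 and 246 CPM, and columns of chip a reached 4645 CPM, so the sum of chip a rested on a few columns.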
